A study of Homo sapiens with 8 samples.

Results

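Chromatin accessibility was examined around 9 genes that detect cytosolic DNA, pass on the signal or limit it: STING1, CGAS, TBK1, IKBKE, IRF3, IFI16, TREX1, ENPP1 and SAMHD1. The genes were chosen by name, and they are 9 of the 20037 protein-coding entries of the RefSeq gene table of GRCh38.p14. For each gene, every ATAC-seq peak between 50 kb before and 50 kb after the gene body was taken from each sample's list, with its position, width and rank. ATAC-seq uses a transposase that inserts sequencing adapters where DNA is accessible, and a peak is a stretch where such insertions pile up. The 8 samples came from H1975 and HCC44, established human lung cancer cell lines whose genotype is labelled WT in every group. Per the labels, a line received either the solvent DMSO or ACBI1 at 1 mM, both for 96 h, with 2 replicates in each of the 4 groups. A millimolar dose is far above what cells are usually given of such a compound, and the labelled unit could not be checked here. ACBI1 is a small molecule that brings about the degradation of SMARCA2, SMARCA4 and PBRM1. The first pair are the motor subunits of SWI/SNF (BAF) complexes, which remodel chromatin with energy from ATP, and PBRM1 marks one class of them. The labels do not say whether the replicates were separate cultures, so the spread between them may be technical. The series title links SMARCA4 in lung cancer to the STING pathway, and the comparison asks whether accessible regions at the genes of that pathway differ after the remodellers are degraded.

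In the pathway, the enzyme cGAS (gene CGAS) binds double-stranded DNA in the cytosol and makes the cyclic dinucleotide cGAMP. STING (gene STING1), an adaptor in the endoplasmic reticulum membrane, binds cGAMP, moves towards the Golgi and recruits the kinases TBK1 and IKK-epsilon (gene IKBKE), which phosphorylate the transcription factor IRF3 and so start type I interferon transcription. IFI16 is a DNA-binding protein of the same pathway, TREX1 is an exonuclease that removes cytosolic DNA, ENPP1 hydrolyses cGAMP outside the cell, and SAMHD1 is a dNTP hydrolase that also limits the release of DNA fragments from replication forks. In lung cancer cells the pathway is known for tying DNA damage to interferon and chemokine production.

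A peak at its start was listed for each of the 9 genes in all 8 samples, with or without ACBI1. Over the genome, 55.5% of the 20037 protein-coding genes had a peak at a start or end in all 8 samples. With peaks of at least 5-fold enrichment alone, only IFI16 kept a start peak in all 8. With a −log10 q of at least 20, STING1, IKBKE and ENPP1 lacked a start peak in some samples. What differed was the standing of the start peaks and the regions around them. By −log10 q, the start regions of STING1, IKBKE, IFI16 and TREX1 ranked lower with ACBI1 than with DMSO in both replicates of each line. For IFI16 in HCC44 the direction turned in 2 other settings, to a difference of 7.06 percentile points by fold enrichment and 0.40 with lists of equal length. Away from gene ends, the IKBKE locus had the most regions lost with ACBI1. Around IKBKE, IRF3 and IFI16, 5 distal regions were listed in all 4 DMSO samples and in none of the 4 ACBI1 samples. Of all distal regions in both DMSO samples of a line, 52.1% were lost in H1975 and 64.8% in HCC44. At the start of TBK1 the rank was higher with ACBI1 in H1975, and around CGAS the number of listed peaks was the same in every sample of a line.

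The ACBI1 lists were shorter than the DMSO lists over the whole genome, and every result at these genes has to be read against that. In H1975 the list lengths were 43525 and 41027 under DMSO against 27682 and 22133 under ACBI1. In HCC44 they were 50347 and 49945 against 26313 and 24862. Depth in reads is unknown, and a region without a listed peak is not a measurement of closed chromatin. Ranks use the −log10 q that the authors' peak caller gave each peak, where a higher value is a stronger peak. To set lists of unequal length side by side, each start region was ranked among the 10171 gene-boundary regions that had a peak in all 8 lists, and its percentile is its place among them, from 0 for the weakest to 100 for the strongest. A gene boundary lies within 1 kb of a protein-coding gene's end, on either side, or of a start in the RefSeq promoter table, and distal regions are all others. Overlapping peaks of different samples were joined into 1 region. A region is called lost in a line when both DMSO samples and neither ACBI1 sample had it, gained when only the ACBI1 samples had it, both of them, and retained when it was listed 4 times of 4.

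For 6 of the genes the RefSeq promoter table (GRCh38.p14) holds the sequence from 250 bases before the start to 50 bases from it on, and the 3 of them whose start ranked lower by −log10 q in both lines had the fewest CpG dinucleotides. No sequence is printed for STING1, CGAS or IRF3. The promoters of IKBKE (chr1:206470226-206470525, plus strand), IFI16 (chr1:159009657-159009956, plus strand) and TREX1 (chr3:48465580-48465879, plus strand) ranked lower by −log10 q with ACBI1 in both lines and are shown beside that of TBK1 (chr12:64451870-64452169, plus strand), which did not. They are written 5′ to 3′, and capitals mark matches to the motifs named after them.
IKBKE: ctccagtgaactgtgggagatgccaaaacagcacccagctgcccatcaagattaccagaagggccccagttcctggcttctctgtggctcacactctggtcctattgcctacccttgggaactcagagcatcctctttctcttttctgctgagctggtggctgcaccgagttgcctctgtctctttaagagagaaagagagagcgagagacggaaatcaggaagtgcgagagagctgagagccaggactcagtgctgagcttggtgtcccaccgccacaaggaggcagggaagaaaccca
IFI16: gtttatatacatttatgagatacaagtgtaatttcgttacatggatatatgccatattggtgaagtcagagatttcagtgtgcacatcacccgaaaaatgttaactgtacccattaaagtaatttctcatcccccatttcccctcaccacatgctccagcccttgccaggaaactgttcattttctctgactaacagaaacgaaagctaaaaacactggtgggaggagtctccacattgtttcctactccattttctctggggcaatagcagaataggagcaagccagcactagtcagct
TREX1: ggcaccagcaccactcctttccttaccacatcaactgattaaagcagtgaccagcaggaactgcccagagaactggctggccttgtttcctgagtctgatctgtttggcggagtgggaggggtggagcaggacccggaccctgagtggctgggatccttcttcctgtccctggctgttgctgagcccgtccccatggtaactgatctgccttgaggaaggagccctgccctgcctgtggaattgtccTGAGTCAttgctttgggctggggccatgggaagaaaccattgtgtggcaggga
TBK1: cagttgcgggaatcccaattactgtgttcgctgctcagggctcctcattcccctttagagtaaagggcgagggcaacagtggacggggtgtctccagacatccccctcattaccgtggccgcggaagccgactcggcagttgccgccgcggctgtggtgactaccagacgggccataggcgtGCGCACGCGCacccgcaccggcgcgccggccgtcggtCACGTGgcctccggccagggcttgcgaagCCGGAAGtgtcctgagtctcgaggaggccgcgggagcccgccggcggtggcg
The first 3 promoters hold few CpG dinucleotides. IKBKE has 5, IFI16 has 3 and TREX1 has 3, against 35 in TBK1, 37 in ENPP1 and 22 in SAMHD1, and a median of 21 over 22199 promoter entries of protein-coding genes. IFI16 has an upstream second entry (chr1:159008741-159009040) with 1 CpG, which no listed peak overlapped in any of the 8 samples. Both strands were searched for AP-1 (TGANTCA), the interferon-stimulated response element (GAAA, any 2 bases, GAAA), the SP1 GC box (GGGCGG), ETS (CCGGAAG), NRF1 (GCGC, any 2 bases, GCGC) and the E-box (CACGTG). These letters occur in 6.15%, 3.17%, 56.3%, 12.8%, 10.6% and 8.34% of all promoters of this length, in that order. TREX1 holds 1 AP-1 match starting 3 bases before its start, and none of the motifs occurs in the IKBKE or IFI16 sequence shown. TBK1 holds an NRF1 match 68 bases, an E-box 31 bases and an ETS match 2 bases before the start. ENPP1 holds 7 GC-box matches, several of them overlapping, and SAMHD1 holds 2 NRF1 matches. A match is a description of the letters and not a bound site.

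The association with CpG number was also counted over the genome, with limits of CpG number chosen after the members' values were seen. Of the 96 shared gene-boundary regions whose promoter entry has at most 5 CpG dinucleotides, 37 (38.5%) ranked lower in both ACBI1 than in both DMSO samples of both lines. The share was 16.2% of 1467 regions with 6 to 20 CpG dinucleotides and 12.0% of 6567 regions with 21 or more. Ranked by the authors' fold enrichment instead of −log10 q, the shares were 21.9%, 16.3% and 12.0%. IKBKE, IFI16 and TREX1 are 3 of the 37 regions. By fold enrichment the genes with an entry that ranked lower in both lines were IKBKE, TREX1 and SAMHD1, which has 22 CpG dinucleotides, and IFI16 ranked higher in HCC44. The regions share their libraries, so these shares describe the 8 lists and were not tested.

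STING1 encodes the adaptor that gives the pathway its name (gene ID 340061, chr5:139475533-139482758). Its start region (chr5:139481172-139482876) lies at the upper end of the gene and reaches into the gene body. In H1975 its percentile was 27.5 and 14.8 with DMSO and 3.27 and 0.728 with ACBI1. In HCC44 it was 44.5 and 41.5 with DMSO and 8.32 and 2.72 with ACBI1. All 4 ACBI1 values lay below all 4 DMSO values, near the bottom of the shared regions. The mean difference was −19.2 points in H1975 (SD between replicates 6.47, n = 2 per group) and −37.5 points in HCC44 (SD 3.19, n = 2). Over all 10171 shared regions the median difference was 0.34 points in H1975 and 0.49 in HCC44. Percentiles rank the same regions in every list, so the differences balance out by construction. The medians cannot show whether the other regions changed. An exact two-sided permutation test over both lines gave p = 0.0556, the smallest that its 36 arrangements allow, and 0.207 after Benjamini-Hochberg adjustment over the 10171 regions. No p under 0.05 can be reached by this test with 2 replicates per group, so here and below the difference is set beside the SD between replicates. With every list cut to the 22133 strongest peaks, the length of the shortest list, the differences for STING1 were −5.70 in H1975 and −23.3 in HCC44, and ranked by fold enrichment they were −11.1 and −31.4.

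The STING1 start peak was also narrower with ACBI1. Its length was 1577 and 1570 bp against 1185 and 183 bp, DMSO against ACBI1, in H1975, and 1392 and 1212 bp against 847 and 683 bp in HCC44. Every ACBI1 peak lay inside both DMSO peaks of its line. The shortest, in H1975 ACBI1 replicate 2, was chr5:139482243-139482425, within the gene. In log2 units the difference in length was −1.76 in H1975 (SD 1.35, n = 2) and −0.77 in HCC44 (SD 0.18, n = 2). The H1975 value rests on that replicate, since without it the difference was −0.41. Across the shared regions 41.2% were narrower in both ACBI1 than in both DMSO samples of both lines, so the narrowing itself was common. In rank within its own list, the STING1 start peak stood at 14553 of 43525 and 19503 of 41027 with DMSO in H1975, and at 20360 of 27682 and 21466 of 22133 with ACBI1. With peaks of −log10 q of at least 20 alone, it would be missing from ACBI1 replicate 2 of each line.

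Around STING1 the HCC44 DMSO lists, which were longer, held more peaks than those of H1975. Listed peaks numbered 3 and 3 with DMSO and 4 and 3 with ACBI1 in H1975, and 6 and 7 against 4 and 4 in HCC44. The groups overlapped in H1975 and did not in HCC44, where the difference turned from −2.5 peaks to 1 with lists of equal length. In HCC44 2 distal regions were lost: chr5:139458904-139459625, 23.5 kb downstream within ECSCR, and chr5:139495903-139496337, 13.4 kb upstream of the STING1 start. Neither was listed in any H1975 sample. With DMSO in HCC44 the first stood at percentile 34.3 and 35.4 of all listed peaks, and the second at 12.6 and 16.8. A distal region 35.4 kb upstream (chr5:139517738-139518514) was retained in both lines, with peaks of 587 to 777 bp in the 8 lists. A further one lay 31 kb upstream (chr5:139513586-139514012). It was listed in HCC44 DMSO replicate 2, H1975 ACBI1 replicate 1 and both HCC44 ACBI1 samples. The locus thus had a retained upstream region and a start that ranked lower with ACBI1 in both lines, and lost regions in HCC44. Whether the lines differed in the loss could not be tested in regions that H1975 did not list. For the number of peaks the exact permutation test over both lines gave p = 0.333 for STING1 (0.477 after Benjamini-Hochberg adjustment over 18150 genes).

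**Figure D1:**
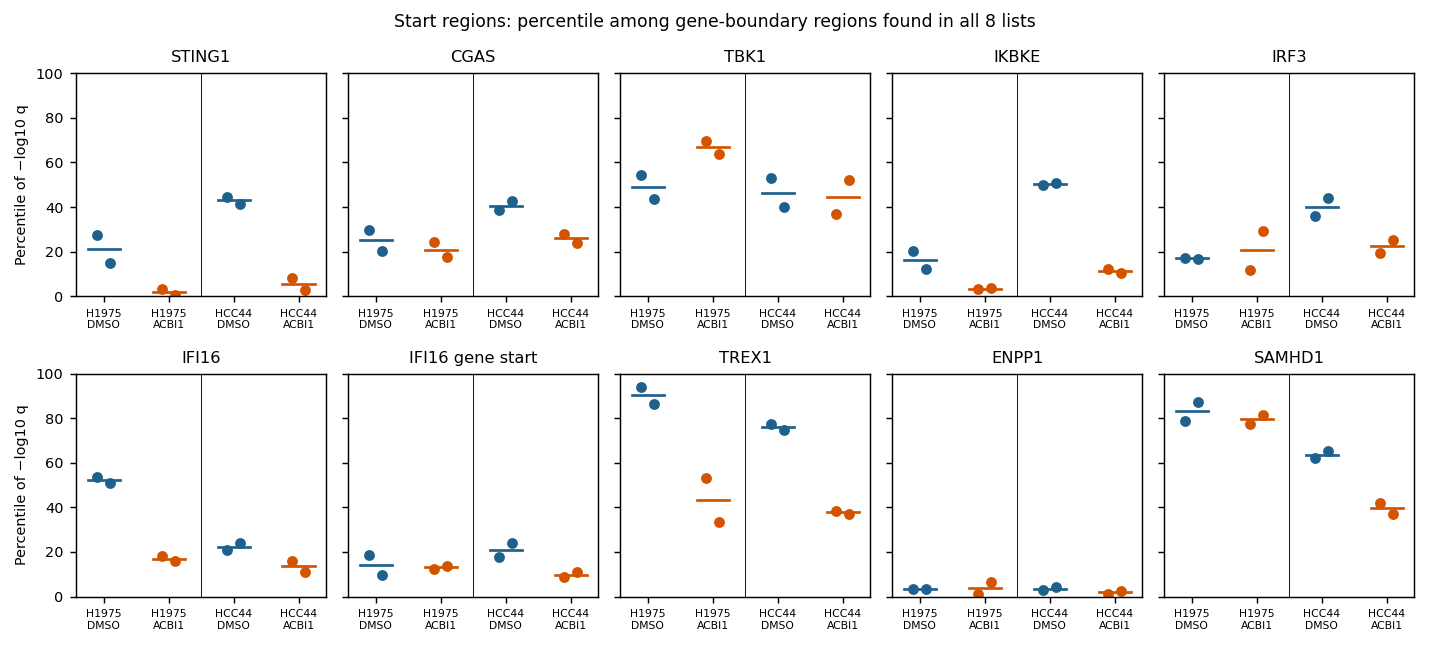
Percentile of the start region of each gene among 10171 gene-boundary regions found in all 8 lists, ranked by −log10 q, from 0 (weakest) to 100 (strongest). Points are samples (DMSO blue, ACBI1 orange), bars are means of 2 replicates, and the gene start of IFI16, which lies upstream of the start used, has a panel of its own. The STING1, IKBKE, IFI16 and TREX1 points lie lower with ACBI1 in both lines, and the TBK1 points lie higher in H1975.

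**Figure D2:**
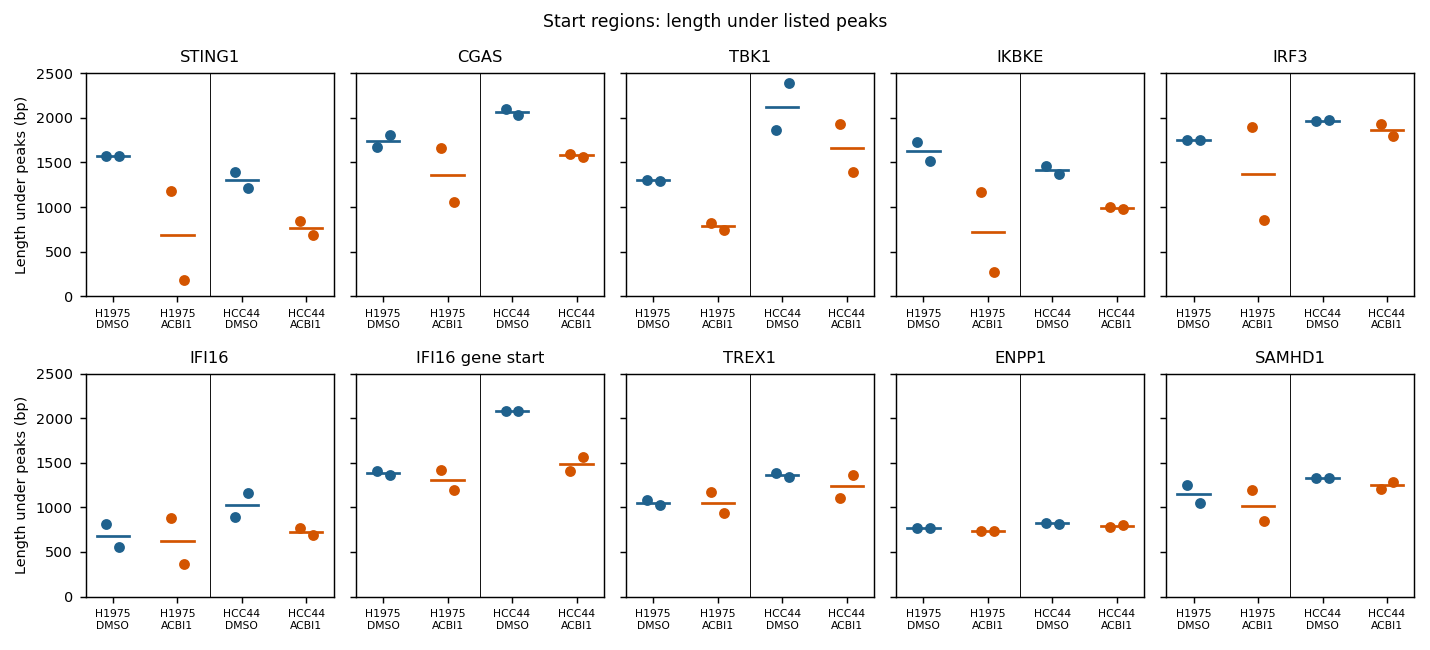
Length in bp under listed peaks at the start region of each gene, with points for samples and bars for means of 2 replicates. The STING1 start was covered by 183 bp in H1975 ACBI1 replicate 2 and by 1577 bp in H1975 DMSO replicate 1.

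CGAS, the gene of the DNA sensor (chr6:73423711-73452297), was the most stable of the loci in peak number. Its listed peaks numbered 4 in H1975 and 3 in HCC44, in all samples of the line. Its start region (chr6:73450490-73452619) stood at percentile 29.7 and 20.4 with DMSO and 24.1 and 17.6 with ACBI1 in H1975, where the groups overlapped. In HCC44 it stood at 38.5 and 42.6 with DMSO and 28.1 and 24.0 with ACBI1, a difference of −14.5 points (SD 2.90, n = 2). A distal region within OOEP (chr6:73388591-73389652, 63.2 kb downstream) was retained in both lines. The extra H1975 peak was a region at the boundary of DDX43 and OOEP (chr6:73394647-73395258), present in all 4 H1975 lists and in no HCC44 list.

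IFI16, another DNA-binding protein of the pathway, lies at chr1:158999976-159055151. The gene start of the entry and the start in the promoter table, further inside, both had a peak in all 8 lists. At the table's start (chr1:159009477-159010638) the percentile was 53.6 and 50.8 with DMSO and 18.2 and 15.9 with ACBI1 in H1975. The difference of −35.2 points (SD 1.81, n = 2) was among the lowest 1.02% of the shared regions in that line. In HCC44 the values were 20.7 and 23.9 with DMSO and 16.1 and 11.2 with ACBI1, a difference of −8.68 points (SD 2.96, n = 2) that did not hold in 2 other settings. It was 7.06 when ranked by fold enrichment and 0.40 with lists of equal length. The gene start of IFI16 (chr1:158998621-159000928) gave overlapping groups in H1975, at 18.8 and 9.65 with DMSO and 12.3 and 13.8 with ACBI1.

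IFI16 had 5 and 5 listed peaks with DMSO and 3 and 3 with ACBI1 in H1975, and 6 and 5 against 3 and 3 in HCC44. The groups did not overlap in either line. The mean difference over lines was −2.25 peaks, with p = 0.0556 by the exact permutation test and 0.147 after Benjamini-Hochberg adjustment over 18150 genes. With lists of equal length the difference was −0.5 in each line. Inside the gene, chr1:159015445-159015776, 5.7 kb past the start, was a strong region in H1975, at percentile 85.6 and 82.9 of all listed peaks of its DMSO lists, and was lost there. HCC44 listed it in 1 of 2 DMSO samples and in no ACBI1 sample. Further downstream, a region within AIM2 (chr1:159091050-159092524, 81.9 kb from the start) was lost in both lines. AIM2 encodes an inflammasome sensor of cytosolic DNA and borders IFI16, so this region belongs to the surroundings of both genes. The 1 gene-boundary region of the whole set that was lost lay at the IFI16 gene end (chr1:159054290-159054718), in HCC44.

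IKBKE, which encodes the inducible kinase of the pathway (chr1:206470476-206496889), differed most in its surroundings. Listed peaks numbered 8 and 8 with DMSO and 5 and 5 with ACBI1 in H1975, and 7 and 8 against 5 and 5 in HCC44. The mean difference was −2.75 peaks (exact permutation test p = 0.0556, and 0.147 after Benjamini-Hochberg adjustment over 18150 genes). With lists of equal length it turned to 2 peaks more with ACBI1 in H1975 and 1.5 more in HCC44. With peaks of −log10 q of at least 20 alone it was −4.5 in H1975 and −2 in HCC44. All 5 distal regions that both H1975 DMSO samples had were lost, against 52.1% of all such regions over the genome. In HCC44 4 of 5 were lost, against 64.8%.

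Downstream of IKBKE 3 distal regions were lost in both lines. They are chr1:206501125-206501561, which is 4236 bp past the gene, chr1:206503897-206504482, which is 3049 bp from RASSF5, and chr1:206513328-206514025 within RASSF5, a gene of a RAS-association domain protein. The middle region was the strongest, at percentile 69.5 and 64.0 of all listed peaks with DMSO in H1975 and 73.7 and 63.2 in HCC44. The other regions lost around IKBKE, with those named next, stood lower with DMSO. They lay between percentile 11.7 and 24.5 in H1975 and between 26.3 and 62.7 in HCC44. H1975 alone lost chr1:206447862-206448131 within SRGAP2 and chr1:206498711-206498933, 1822 bp past IKBKE, neither of which HCC44 listed. HCC44 lost chr1:206481169-206481597 within IKBKE, which H1975 listed in 1 DMSO sample and no ACBI1 sample. Against this, chr1:206461755-206462074 within SRGAP2, 8.6 kb upstream, was gained in both lines and was the only such region of the 34 distal ones. It was a weak peak, at percentile 19.5 and 6.71 in the H1975 ACBI1 lists and 28.7 and 38.6 in those of HCC44. A region within RASSF5 (chr1:206544715-206545211) was gained in H1975 and retained in HCC44. Inside IKBKE, chr1:206490013-206490725 was listed in every ACBI1 sample, and with DMSO only in replicate 2 of each line.

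At the IKBKE start (chr1:206469599-206471332) the percentile was 20.4 and 12.2 with DMSO and 3.06 and 3.87 with ACBI1 in H1975. In HCC44 it was 49.9 and 51.0 with DMSO and 12.4 and 10.6 with ACBI1. The groups did not overlap in either line, and the difference was −12.8 points (SD 4.12, n = 2) in H1975 and −38.9 points (SD 1.04, n = 2) in HCC44. The H1975 difference shrank to −1.94 with lists of equal length and to −2.34 when ranked by fold enrichment, and in HCC44 it was −31.5 and −10.9. The peak at the start spanned 1734 and 1512 bp against 1165 and 269 bp in H1975, DMSO against ACBI1, and 1458 and 1369 bp against 1006 and 975 bp in HCC44. Without H1975 ACBI1 replicate 2, which had the shortest list, the log2 difference in H1975 was −0.47 in place of −1.53.

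TBK1, the kinase that is present in most cells (chr12:64452120-64502114), differed from IKBKE at its start. At its start region (chr12:64450649-64453054, shared with the end of XPOT) the percentile was 54.2 and 43.4 with DMSO and 69.8 and 63.9 with ACBI1 in H1975. The H1975 difference was 18.0 points (SD 6.16, n = 2), and in that line no other of the 10 start regions lay higher in both ACBI1 than in both DMSO samples. By fold enrichment it was 35.7 points. In HCC44 the values were 52.9 and 39.9 with DMSO and 37.0 and 51.9 with ACBI1, and the groups overlapped. Length went the other way in H1975, at 1306 and 1295 bp against 822 and 747 bp with ACBI1, so the peak was narrower and ranked higher. Listed peaks numbered 3 and 4 against 3 and 3 in H1975 and 4 and 3 against 2 and 2 in HCC44. In HCC44 a distal region within RASSF3 (chr12:64542542-64542918) was lost, and a neighbouring region (chr12:64543558-64544025) was listed in all 4 H1975 samples and in no HCC44 sample.

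IRF3, the transcription factor the kinases act on (chr19:49659572-49665857), lies in a gene-dense stretch and had similar numbers of listed peaks with and without ACBI1. They were 5 and 6 listed peaks with DMSO and 5 and 7 with ACBI1 in H1975, and 6 and 6 against 7 and 5 in HCC44. The start region (chr19:49664245-49666231), which BCL2L12 shares, stood at percentile 17.3 and 16.6 with DMSO and 11.9 and 29.1 with ACBI1 in H1975. In HCC44 it stood at 36.1 and 43.9 with DMSO and 19.4 and 25.3 with ACBI1, a difference of −17.6 points (SD 4.86, n = 2). In the window 1 region was lost in both lines, chr19:49613407-49614775 within PRR12, 51.8 kb downstream. In HCC44 it was a strong distal region, at percentile 90.6 and 93.2 of all listed peaks with DMSO, and it covered 1311 and 1343 bp. Gained regions were few: chr19:49684562-49684923 within PRMT1 was gained in H1975 alone and chr19:49672177-49672555 within BCL2L12 in HCC44 alone. The boundary of ADM5, CPT1C and PRMT1 (chr19:49688983-49691106) was listed in all 4 HCC44 samples and in no H1975 sample.

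TREX1, the exonuclease (chr3:48465830-48467645), had by −log10 q the strongest start of the set with DMSO together with SAMHD1, and the largest difference in percentile of the 10 start regions in H1975. At its start region (chr3:48465368-48466924), which also holds boundaries of ATRIP and SHISA5, the percentile was 94.0 and 86.4 with DMSO and 53.3 and 33.6 with ACBI1 in H1975. In HCC44 it was 77.4 and 74.5 with DMSO and 38.2 and 37.2 with ACBI1. The difference was −46.7 points (SD 10.6, n = 2) in H1975 and −38.2 points (SD 1.53, n = 2) in HCC44, among the lowest 0.256% and 1.86% of the shared regions. With lists of equal length it was −57.8 and −48.3, and by fold enrichment −24.9 and −17.1. By fold enrichment its DMSO percentiles were 55.0 and 41.6 in H1975 and 39.9 and 41.2 in HCC44, and TBK1 (35.7) and IFI16 (−29.3) differed more than TREX1 in H1975. The groups overlapped in the length under the peak in both lines, at 1082 and 1025 bp against 1170 and 936 bp in H1975 and 1387 and 1342 bp against 1107 and 1363 bp in HCC44. TREX1 had 7 listed peaks in 7 of the 8 samples and 6 in HCC44 ACBI1 replicate 1. In HCC44 ACBI1 replicate 2, 1 of the 7 was a distal peak within CCDC51 (chr3:48436158-48436449) that no other sample listed. The 1 distal region listed with DMSO (chr3:48507444-48508112) was retained in H1975 and lost in HCC44.

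ENPP1, the cGAMP hydrolase (chr6:131808020-131895155), had the weakest start of the set in most lists. At chr6:131807567-131808446 the percentile lay between 1.31 and 6.49 in all 8 samples, and the groups differed by 0.41 points in H1975 (SD 2.58, n = 2) and −1.71 points in HCC44 (SD 1.00, n = 2). Ranked by fold enrichment, the same peaks stood between percentile 36.3 and 57.9, so the start was weak by −log10 q and not by fold enrichment. H1975 listed 2 peaks around ENPP1 in every sample, and HCC44 listed 4 and 5 with DMSO and 4 and 2 with ACBI1. A distal region 107.0 kb from the start (chr6:131914486-131915605) was retained in HCC44 and was not listed in H1975. Within ENPP1, chr6:131863874-131864279 was retained in H1975. In HCC44 it stood at percentile 79.4 and 76.1 of all listed peaks with DMSO and 16.9 in ACBI1 replicate 1. HCC44 alone listed a region 15.8 kb upstream (chr6:131792021-131792475), at 81.3 and 71.9 with DMSO and 4.74 in ACBI1 replicate 1. HCC44 ACBI1 replicate 2 listed neither of these last regions.

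SAMHD1, the dNTP hydrolase (chr20:36889773-36951708), had its start near the top of the shared regions by −log10 q in H1975. At chr20:36950789-36952280 the percentile was 78.7 and 87.3 with DMSO and 77.4 and 81.5 with ACBI1 in H1975, with overlapping groups. In HCC44 it was 62.3 and 65.1 with DMSO and 42.1 and 37.0 with ACBI1, a difference of −24.2 points (SD 2.91, n = 2). By fold enrichment the groups did not overlap in H1975 either, at 72.5 and 78.7 with DMSO and 62.9 and 71.3 with ACBI1, and the difference was −8.53 points there and −12.6 in HCC44. Listed peaks numbered 5 and 4 against 4 and 3 in H1975, and 6 and 4 against 3 and 3 in HCC44. A region within TLDC2 (chr20:36886927-36887912), 64.3 kb downstream, was retained in both lines. H1975 lost a second TLDC2 region (chr20:36881923-36882297), and HCC44 lost a region within MTCL2 (chr20:36854558-36855529).

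**Figure D3:**
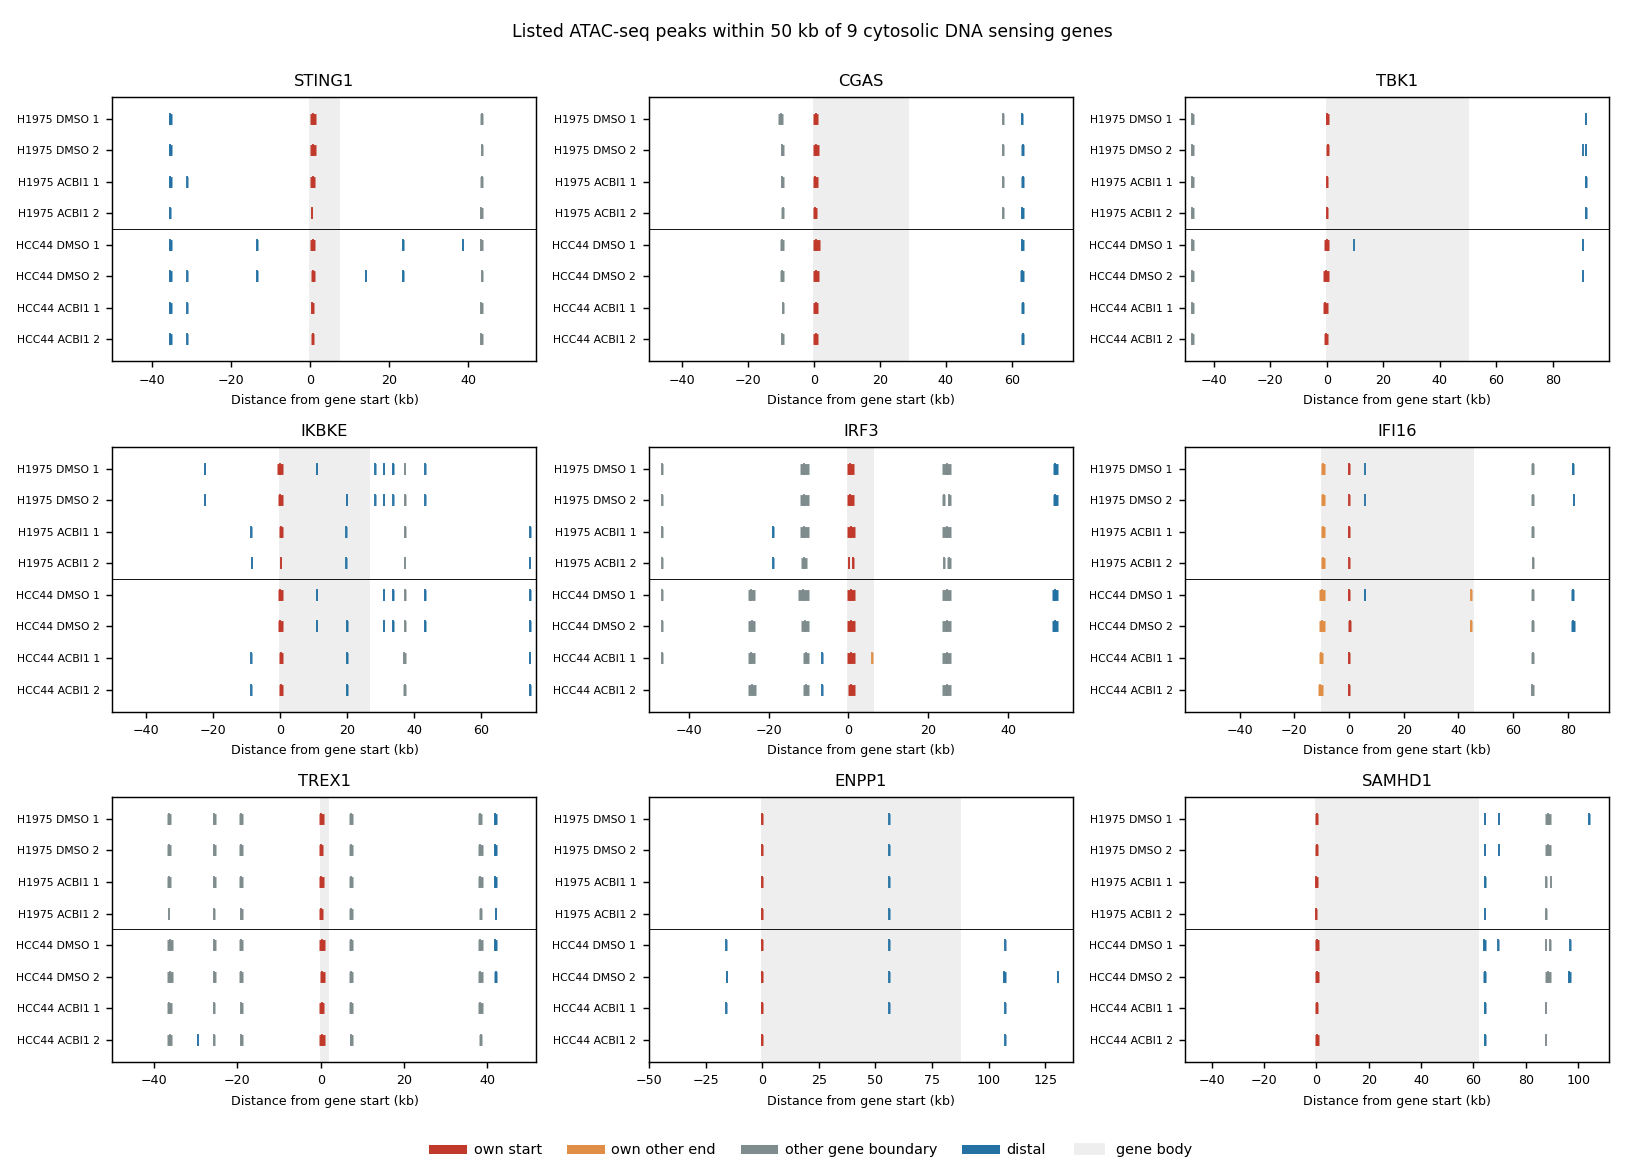
Listed peaks within 50 kb of each gene, 1 row per sample, by distance in kb from the gene's start in the direction of transcription. Red marks the gene's own start, orange its other end or gene start, grey a boundary of another gene, blue a distal region, and the shaded band is the gene body. The red and grey marks run through all 8 rows at most loci, and blue marks are fewer in the ACBI1 rows, most visibly downstream of IKBKE.

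Set side by side, 4 of the 10 start regions had a lower percentile in both ACBI1 than in both DMSO samples in H1975, against 27.0% of the 10171 shared regions, and 1 had a higher one, against 28.6%. In HCC44 9 of 10 had a lower one, against 27.5%. Ranked by fold enrichment instead, 5 were lower and 1 higher in H1975, against 25.4% and 23.3%, and 6 were lower and 2 higher in HCC44, against 33.1% and 32.0%. Covered length was lower for 5 of 10 in H1975, against 50.4%, and for 8 of 10 in HCC44, against 68.9%. By −log10 q STING1, IKBKE, IFI16 and TREX1 were lower in percentile in both lines, against 13.3% of the shared regions. Each of these 4 had p = 0.0556 by the exact permutation test and 0.207 after Benjamini-Hochberg adjustment over the shared regions. Ranked by fold enrichment, STING1, IKBKE, TREX1 and SAMHD1 were lower in both lines, against 13.8%. The 3 that both rankings name are STING1, IKBKE and TREX1. By position in the pathway they are the adaptor, a kinase and the exonuclease, though for IKBKE in H1975 the fold enrichment difference was only −2.34 points. The start of the sensor gene CGAS had overlapping groups in H1975 by both rankings. In HCC44 it was lower by both, by −14.5 points by −log10 q and −5.44 by fold enrichment.

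Over the 9 loci, the number of listed peaks was 42 and 43 with DMSO and 37 and 37 with ACBI1 in H1975, and 49 and 48 against 37 and 34 in HCC44. The mean was 42.5 ± 0.707 (SD, n = 2) against 37 ± 0 in H1975 and 48.5 ± 0.707 against 35.5 ± 2.12 in HCC44. Distal peaks made up the difference, with 17 and 17 against 11 and 10 in H1975 and 22 and 22 against 11 and 10 in HCC44. Peaks at the genes' own boundaries numbered 10 or 11 in every sample, and those at boundaries of other genes 14 to 16. With lists of equal length the sign of the total turned, to 6 peaks more with ACBI1 in H1975 and 5 more in HCC44, and the distal difference was 0 and 0.5. A difference at these loci and the difference in list length cannot be told apart from the counts.

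By gene, the count was lower in both ACBI1 than in both DMSO samples for 2 of 9 genes in H1975, IKBKE and IFI16, against 43.3% of the 20037 protein-coding genes. In HCC44 it was lower for 5 of 9, STING1, TBK1, IKBKE, IFI16 and SAMHD1, against 55.1%. With lists of equal length the HCC44 differences of these 5 were 1 for STING1, 0 for TBK1, 1.5 for IKBKE, −0.5 for IFI16 and 2 for SAMHD1. In the lists as deposited IKBKE and IFI16 were lower in both lines, against 34.0%. The share was below that of the genome in H1975 and over both lines, and close to it in HCC44. The 20037 genes include some without a listed peak in any sample, which cannot be lower, whereas each of the 9 had listed peaks. No gene of the 9 had more peaks in both ACBI1 samples of a line, against 1.45% of genes in H1975 and 1.79% in HCC44.

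**Figure D4:**
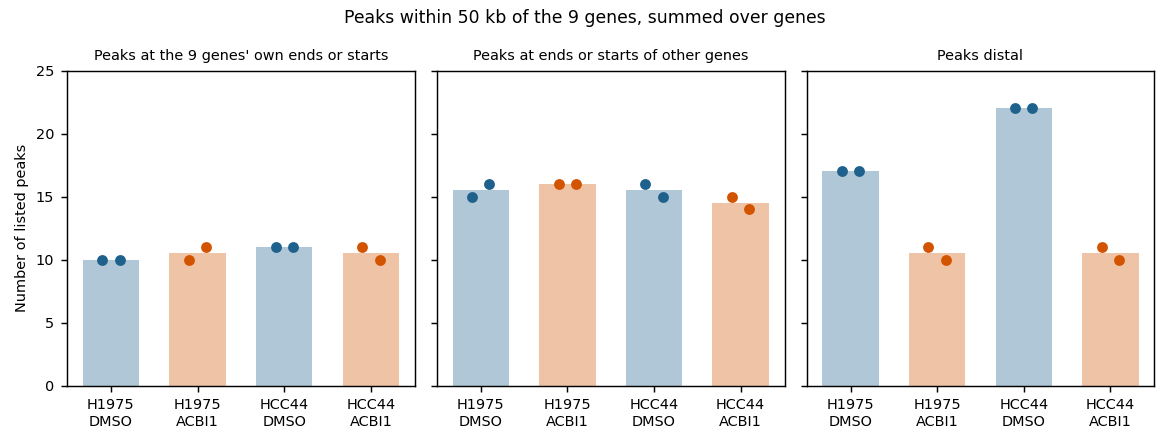
Number of listed peaks within 50 kb of the 9 genes, summed over genes, at the genes' own ends or starts (left), at ends or starts of other genes (middle) and distal (right). Points are samples and bars are means of 2 replicates. Distal peaks number 17 and 22 with DMSO and 10 or 11 with ACBI1, and the other classes stay between 10 and 16.

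The merged peaks gave 62 regions: 9 at the genes' starts, 3 at their other ends, 16 at boundaries of other genes and 34 distal. Of the 28 boundary regions, 23 were listed in all 8 samples, and of the 34 distal regions 3 were. In H1975, 9 of the 15 distal regions that both DMSO samples had were lost (60%), against 52.1% of all such distal regions. In HCC44, 11 of 18 were lost (61.1%), against 64.8%. None of 25 boundary regions was lost in H1975 and 1 of 26 was in HCC44, against 4.71% and 9.30%, and 25 of 25 and 24 of 26 were retained, against 92.1% and 87.4%. Gained regions, all of them distal, numbered 3 of the 48 regions merged from the H1975 lists and 2 of the 56 merged from the HCC44 lists. Over the genome 1.35% and 2.28% of all merged regions were gained. The counts at these genes are small and were not tested. The contrast between stable boundaries and lost distal regions at these genes was thus of the size seen across the genome. Of the 15 distal regions lost in 1 line or both, 5 were lost in both. The share lost in both lines over all distal regions was not counted.

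Before treatment, 10 of the 34 distal regions were listed in both DMSO samples of both lines, 3 in those of H1975 alone and 6 in those of HCC44 alone. The HCC44 DMSO lists were longer, and the same split over all distal regions was not counted. All 9 start regions were listed in both lines. The loss in HCC44 thus included regions that no H1975 sample listed, such as those beside STING1 and within MTCL2.

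**Figure D5:**
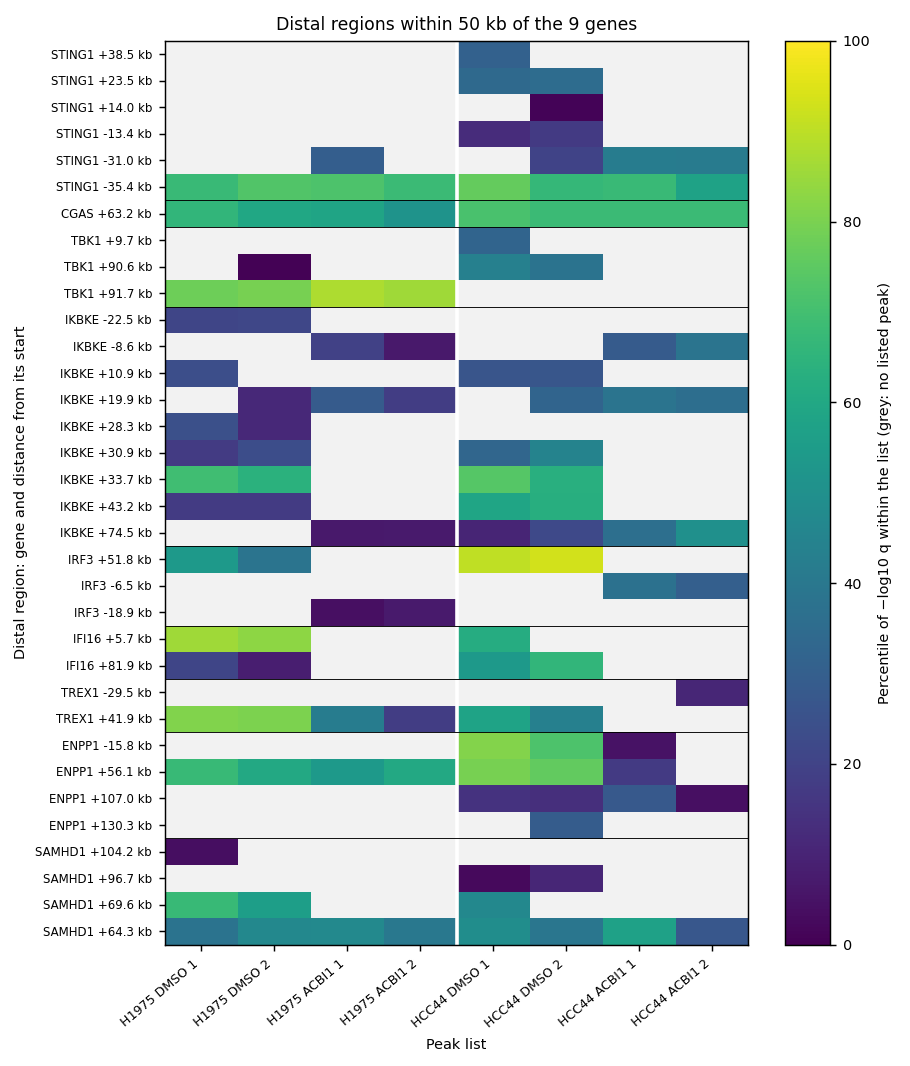
Percentile of −log10 q within each sample's own list for the 34 distal regions, named by gene and distance in kb from its start, with grey where no peak was listed. The IKBKE rows at +30.9, +33.7 and +43.2 kb, the IRF3 row at +51.8 kb and the IFI16 row at +81.9 kb are filled in the 4 DMSO columns and grey in the 4 ACBI1 columns.

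Another 25 genes of DNA sensing, STING trafficking, cGAMP transport and nucleic acid removal gave a similar picture. A peak at a gene boundary was listed in all 8 samples for 20 of them, against 55.5% of protein-coding genes, and in none for RNF5, ENPP3, NLRC3, ABCC1 and ZBP1. RNF5 and ABCC1 had no listed peak within 50 kb in any sample, which cannot be read as closed chromatin. Fewer peaks were listed in both ACBI1 than in both DMSO samples for 9 of 25 genes in H1975 and 17 of 25 in HCC44, against the 43.3% and 55.1% above. The 9 genes of H1975 were also lower in HCC44, so 9 of 25 were lower in both lines, against 34.0% of protein-coding genes. Among them were AIM2, ZDHHC3, YIPF5, TRIM56, MRE11, HMGB1, NLRC3 and PQBP1. ZDHHC3, a palmitoyltransferase that acts on STING, had 11 and 10 listed peaks with DMSO and 4 and 1 with ACBI1 in H1975, and 9 and 9 against 2 and 2 in HCC44. HMGB1, a DNA-bending chromatin protein, had 13 and 12 against 6 and 6 in H1975 and 10 and 9 against 5 and 5 in HCC44. For each of these 8 named genes the exact permutation test gave p = 0.0556 and 0.147 after Benjamini-Hochberg adjustment over 18150 genes. SURF4, RNASEH2A and DNASE2 had more listed peaks in both ACBI1 than in both DMSO samples in H1975, and no gene of the 25 did in HCC44, against the 1.45% and 1.79% above. The windows of AIM2 and ENPP3 overlap those of IFI16 and ENPP1, so their counts share peaks. Overlap of windows among the 25 genes was not counted, so their counts may not be separate observations.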

How the data were processed

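Per the submitters' processing notes, reads were aligned with BWA and the build was hg38. The peak caller, its version, duplicate removal and the handling of transposase offsets are not given in the sources used here. Per the labels' protocols, libraries were amplified for 11 PCR cycles. The authors deposited a separate broadPeak list for every replicate, which means that replicates were not pooled for calling. Each list has 9 columns. The deposited fold enrichment is the authors' ratio over the caller's background, and their p and q values were deposited as −log10 values. Every listed peak had a −log10 q of at least 10.0, so weaker peaks are not in the lists. The deposited score column was not used. Fold and q depend on depth, which is unknown, and served only to rank or filter peaks within a list. Coordinates are 1-based.

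Gene positions came from RefSeq (GRCh38.p14). Starts came from its promoter table, which matched 6 of the 9 genes. For STING1, CGAS and IRF3, which lie on the minus strand, the upper end of the gene entry was used. All 9 genes are named, with their start regions, every distal region lost or gained in 1 line or both, and those retained in both lines. Of the 25 related genes, those with groups that did not overlap in both lines are named, together with those listed without a boundary peak or with more peaks, except 1 that is not reported here. The members and lists were chosen with earlier results of these data known. Groups were compared by an exact two-sided permutation test with treatment permuted within each line (36 arrangements), per gene over 18150 genes and per start region over 10171 shared regions, with Benjamini-Hochberg adjustment over all of them. Sums over the 9 genes were not tested. The ranking among shared regions and the split by CpG number were chosen after seeing the data. Python 3.11.15, numpy 2.4.6, pandas 2.3.3, scipy 1.17.1 and matplotlib 3.10.9 were used, and the functions were tested on simulated data.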

Additional observations from a re-analysis of the deposited data

Results flagged for a closer look

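At the IFI16 start region the difference with ACBI1 went in opposite directions in the lines when peaks were ranked by the authors' fold enrichment. The percentile among the shared gene-boundary regions was 29.3 points lower on average in H1975 (difference −29.3, from 61.4 and 73.0 with DMSO to 30.5 and 45.2 with ACBI1) and 7.06 points higher in HCC44 (from 58.7 and 59.0 to 67.2 and 64.7). Every ACBI1 sample lay below every DMSO sample in H1975 and above every DMSO sample in HCC44. The difference between the lines was not tested. Ranked by −log10 q, both lines had lower values with ACBI1.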

How the results depend on the processing

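Keeping the 22133 strongest peaks of each list by −log10 q turned the sign of the total number of peaks around the 9 genes, which was 6 in place of −5.5 in H1975 and 5 in place of −13 in HCC44. The distal difference became 0 in H1975 and 0.5 in HCC44, the covered length −2.91 and −2.41 kb (from −9.81 and −15.2 kb), the distal regions lost 3 and 4, and the regions gained 5 and 8. It also turned the peak number of IKBKE (2 in H1975, 1.5 in HCC44), and in HCC44 that of STING1 (1) and SAMHD1 (2) and the IFI16 start percentile (0.40). In that setting ENPP1 kept a start peak in 2 lists, and the other 8 genes in all 8. A fold enrichment of at least 5 turned the IKBKE number in H1975 to 0.5, and gave a covered length of −5.98 kb and 16 retained boundary regions in H1975, 5 retained boundary regions, 4 distal regions lost and 0 gained in HCC44, and 1 gene with a start peak in every HCC44 list. A −log10 q of at least 20 gave −10 peaks and 0 regions gained in H1975. Ranking by fold enrichment turned the IFI16 start percentile in HCC44 to 7.06. Windows of 20 kb gave −3.5 and −8 peaks, −4 and −7.5 distal peaks and −5.51 and −8.49 kb in H1975 and HCC44, 16 retained boundary regions in H1975 and 7 distal regions lost in HCC44. Windows of 100 kb gave −12.5 peaks and −10 distal peaks in H1975. Boundaries of 5 kb gave 6 distal regions lost in HCC44. Among regions of the same class and band of −log10 q rank, the background share lost was 48.3% (distal) and 6.40% (boundary) in H1975 and 66.1% and 10.6% in HCC44. The cause of these changes was not tested beyond what the settings remove.

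Leaving out 1 replicate in turn, the difference in peaks ranged from −6 to −5 in H1975 and from −14.5 to −11.5 for HCC44, in distal peaks from −7 to −6 and −12 to −11, and in covered length from −15.3 to −4.35 kb (the latter without H1975 ACBI1 replicate 2) and −16.3 to −14.2 kb. Distal regions lost ranged from 9 to 11 and 11 to 15, retained boundary regions from 24 to 25 in both lines, and gained regions from 3 to 4 and 2 to 4. With a replicate block (16 arrangements, smallest p 0.125) the exact permutation test of peak number gave 0.125 for IKBKE (−2.75), IFI16 (−2.25) and SAMHD1 (−1.5), 0.25 for TBK1 (−1), 0.5 for STING1 (−1), and 1 for CGAS (0), IRF3 (0.25), TREX1 (−0.25) and ENPP1 (−0.75). Same-numbered samples correlated in their deviations over the shared regions (r = 0.326 in H1975 and 0.218 in HCC44, 2 pairs each), and in the sample titles a prefix runs with the number. No label says what the prefix or the number marks, and the main results do not pair the samples. Depth in reads is unknown and limits what a missing peak can show.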
